A study of Mus musculus with 6 samples.

Results

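The cytosolic ribosomal protein genes are the genes that encode the protein subunits of the ribosomes of the cytoplasm. They were chosen by symbol, as every gene of the array's annotation whose name has the form Rpl or Rps followed by a number, or Rplp followed by a number, with close paralogs included. A gene counted if at least 1 probe set of the array named that gene and no other, and where it had several, the brightest on average over all 6 arrays stood for it. This gave 48 of the 18193 genes of the table, of which 26 belong to the large and 22 to the small ribosomal subunit. The symbol rule itself used no measured difference between groups, but it was set with earlier results of these data known. Many other ribosomal protein genes, such as Rplp1, Rpl5, Rpl3, Rpl10 and Rpl10l, are covered here by shared probe sets, which name further genes too, and were not analysed as single genes.

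A ribosome is built from ribosomal RNA and one copy of nearly every ribosomal protein. The small subunit reads the messenger RNA, and the large subunit joins the amino acids. Messenger RNAs for these proteins are among the most abundant of any cell, and many begin with an unbroken run of C and T residues, the terminal oligopyrimidine tract, through which the mTOR pathway controls their translation. In neurons they are needed for growth of the cell body and are also found in axons and dendrites.

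The arrays held RNA of cells sorted from the retinas of C57BL/6 mice at postnatal day 6, after papain dissociation. The Hb9 and Drd4 groups are cells positive for both GFP and Thy1, each labelled as one subtype of retinal ganglion cell, and the Thy1 group is Thy1-positive cells with no GFP named. All 3 groups share strain, age, dissociation and the Thy1 label. Each group has 2 arrays, which the series text describes as biological replicates from different litters, and p-values measure the spread between these arrays only. Both lines are known for marking direction-selective ganglion cells. The sources used here do not give the construct that drives GFP in either line, nor the number of animals or cells in a sort. Thy1 itself lay between 11.24 and 11.78 log2 on all 6 arrays, and 13 of 14 listed ganglion cell markers had a probe set of their own. Because these are bulk samples, fewer cells of a type and less RNA per cell cannot be told apart.

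Ribosomal protein genes were lower in Drd4 cells than in Hb9 cells and in Thy1 cells, and the order of Hb9 and Thy1 depended on the scaling. On each array, the deviation of every gene from its own mean over the 6 arrays was taken. The median deviation over the 48 genes was 0.20 and 0.12 log2 on the Hb9 arrays, -0.27 and -0.13 on the Drd4 arrays, and -0.02 and 0.08 on the Thy1 arrays. On this scale both Drd4 arrays were the lowest of the 6 and both Hb9 arrays the highest. Other genes of like brightness, those whose mean lay between 6.68 and 11.79 log2, had medians of 0.11 and 0.08 in Hb9, -0.04 and 0.00 in Drd4, and -0.14 and -0.02 in Thy1. Measured from these, the ribosomal protein genes stood at 0.09 and 0.04 in Hb9, -0.23 and -0.13 in Drd4, and 0.11 and 0.10 in Thy1, so that Drd4 stayed lowest and Thy1 was highest. On the Hb9 arrays 44 and 39 of the 48 genes lay above their own mean, against 3 and 7 on the Drd4 arrays and 21 and 34 on the Thy1 arrays. Of all genes 57.1% and 54.4% did so in Hb9, 45.8% and 48% in Drd4, and 45.3% and 44.1% in Thy1. Without that reference, both subunits followed the order of the 48 genes. The large subunit genes had medians of 0.17 and 0.14 in Hb9, -0.22 and -0.13 in Drd4, and -0.04 and 0.08 in Thy1. The small subunit genes had medians of 0.23 and 0.11, -0.31 and -0.14, and -0.01 and 0.08. The pooled SD between replicate arrays of these medians was 0.06 log2 for the large and 0.09 log2 for the small subunit (n = 2 arrays per group). As deposited, the group means ran Hb9, Thy1, Drd4 from high to low in 18 large and 13 small subunit genes.

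**Figure D1:**
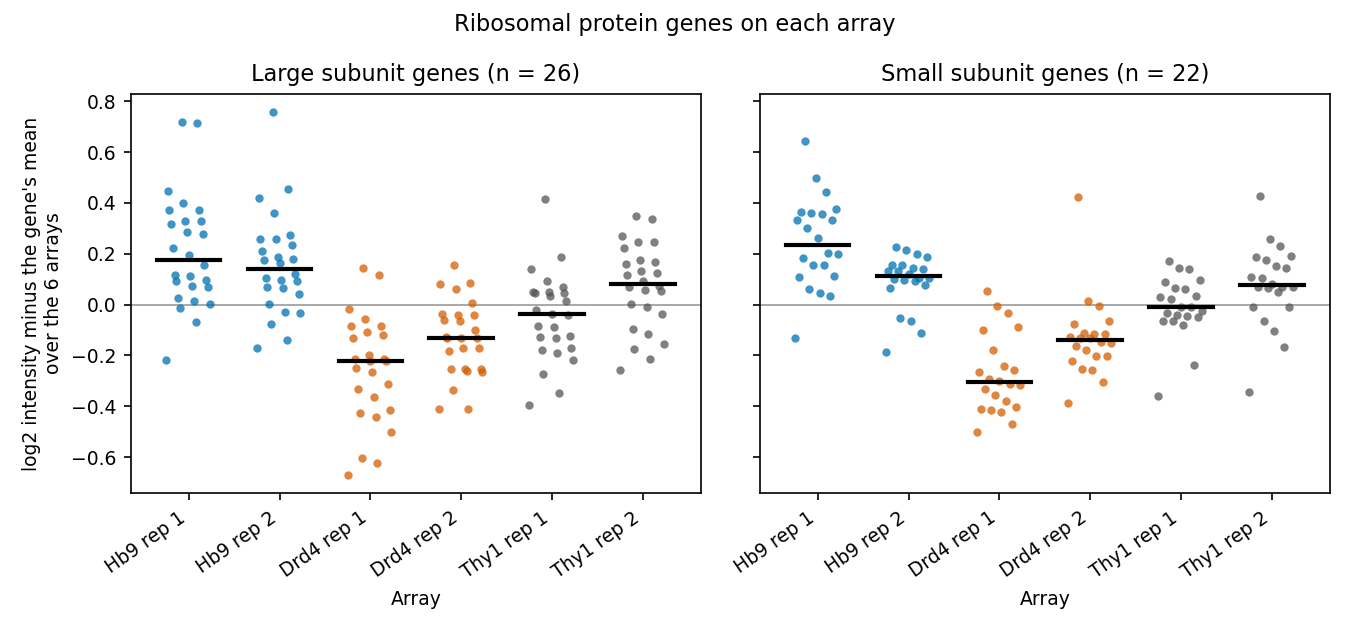
Each point is 1 ribosomal protein gene on 1 array, drawn as its log2 intensity minus its mean over the 6 arrays, with large subunit genes (n = 26) on the left and small subunit genes (n = 22) on the right, and the black line is the median. The Drd4 medians lie lowest, at -0.22 and -0.13 for the large and -0.31 and -0.14 for the small subunit, and on this scale, with no shift to other genes, the Hb9 medians lie highest.

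Against Drd4, the Hb9 cells had higher signal for 47 of the 48 genes, with a median difference of 0.39 log2, a factor of 1.31. The median was 0.32 over the large subunit genes (25 of 26 positive) and 0.41 over the small subunit genes (22 of 22 positive). Over all 18193 genes it was 0.04, with 56.4% positive. Over the 7305 other genes of like brightness it was 0.11, with 64.3% positive. The sign of both subunit medians held when the arrays were quantile normalised, centred on their median, or shifted to equal medians of the genes of like brightness. That shift lowered the medians to 0.20 for the large and 0.28 for the small subunit. In limma, with p-values adjusted over all genes, 13 of the 48 were higher in Hb9 at a threshold of 0.05, against 4.06% of all genes. None was called lower, against 2.06%. Of the 48, 27 had an unadjusted p under 0.05, against 3593 of all 18193 genes. Both Hb9 arrays lay above both Drd4 arrays for 38 of the 48, against 30.6% of all genes, and below them for 1, against 19.1%. After the shift to genes of like brightness 6 of the 13 were called, against 2.79% of all genes. All 13 stayed positive when any 1 array was left out. Fewer of them were called whichever Hb9 or Drd4 array was left out. Such fits leave 1 array in a group, so the lost calls do not show dependence on a particular array.

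The large subunit gave 8 of the 13. Rpl14, a component of the large subunit, had log2 intensities of 6.97 and 7.01 in Hb9, 5.63 and 5.84 in Drd4, and 5.98 and 6.08 in Thy1. The Hb9 arrays stood clear of the other 4. Rpl14 was higher in Hb9 than in Drd4 by 1.26 ± 0.15 log2 (SE; limma adjusted p = 0.000749), a factor of 2.39, and it has a single probe set of its own. Its call held in each of the 18 alternative analyses. Rpl13a, known also for leaving the ribosome to silence inflammatory messenger RNAs, had 11.84 and 11.48 in Hb9, 10.45 and 10.78 in Drd4, and 10.93 and 11.25 in Thy1. All 3 groups were apart from each other, and Hb9 was above Drd4 by 1.04 ± 0.17 (adjusted p = 0.00535). Its 3 other probe sets differed by 1.10, 0.59 and 0.55 in the same direction.

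Rpl35, which lies by the exit of the peptide tunnel, had 11.33 and 11.11 in Hb9 and 10.45 and 10.63 in Drd4, a difference of 0.68 ± 0.14 (adjusted p = 0.0176). The Thy1 arrays, at 10.75 and 11.01, lay between both. Rpl35 has 6 probe sets, and their differences ran from 0.75 to -0.13. Without the x-type probe sets, which can bind transcripts of other genes, the Rpl35 difference was 0.08 (adjusted p = 0.801). Rpl37a, a zinc-finger protein, had 10.63 and 10.56 in Hb9 and 9.86 and 10.03 in Drd4, higher by 0.65 ± 0.13 (adjusted p = 0.0195). The RNA-binding protein Rpl22 had 11.11 and 11.12 in Hb9, 10.46 and 10.70 in Drd4, and 11.14 and 11.20 in Thy1, so that Hb9 and Thy1 lay close and Drd4 alone was low. Hb9 exceeded Drd4 by 0.54 ± 0.12 (adjusted p = 0.0295). Its paralog Rpl22l1 had 10.40 and 10.45 in Hb9, 9.95 and 9.62 in Drd4, and 9.94 and 9.82 in Thy1. Here Hb9 alone was high, above Drd4 by 0.64 ± 0.15 (adjusted p = 0.0297). Rpl27 (0.56 ± 0.14, adjusted p = 0.0435) and Rpl6 (0.46 ± 0.11, adjusted p = 0.0382) completed the large subunit genes that rose, and both sat closer to the threshold. The other probe sets of Rpl27 disagreed, at 0.76 and -0.18.

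The small subunit gave the other 5. Rps4x, whose gene lies on the X chromosome, had 12.17 and 12.06 in Hb9, 11.33 and 11.58 in Drd4, and 11.77 and 12.09 in Thy1, and Hb9 was above Drd4 by 0.66 ± 0.13 (adjusted p = 0.0163). Rps18, a protein of the head of the small subunit, had 11.91 and 11.61 in Hb9, 10.99 and 11.29 in Drd4, and 11.34 and 11.35 in Thy1. Its difference was 0.62 ± 0.14 (adjusted p = 0.0259), the highest of 6 probe sets whose differences ran down to -0.17, and without x-type probe sets it was 0.17 (adjusted p = 0.599). Rps7, which can bind the p53 regulator Mdm2, had 11.49 and 11.44 in Hb9, 10.92 on both Drd4 arrays, and 11.22 and 11.37 in Thy1. All 3 groups were apart, with Hb9 above Drd4 by 0.55 ± 0.11 (adjusted p = 0.0161). Rps28, near the messenger RNA exit, had 12.57 and 12.35 in Hb9 and 11.83 and 12.01 in Drd4, a difference of 0.54 ± 0.11 (adjusted p = 0.017). Rps29, a zinc-binding protein, had 12.37 on both Hb9 arrays and 12.01 and 12.06 in Drd4, a difference of 0.33 ± 0.09 that barely passed (adjusted p = 0.0498). No member reached the top of the table's range, with a highest value of 12.57 for Rps28 against 13.69 for the table. The 35 members that did not pass ran from -0.31 for Rplp2 to 0.59 for Rps6, and Rps24 came closest to the threshold (0.42 ± 0.11, adjusted p = 0.0559).

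**Figure D2:**
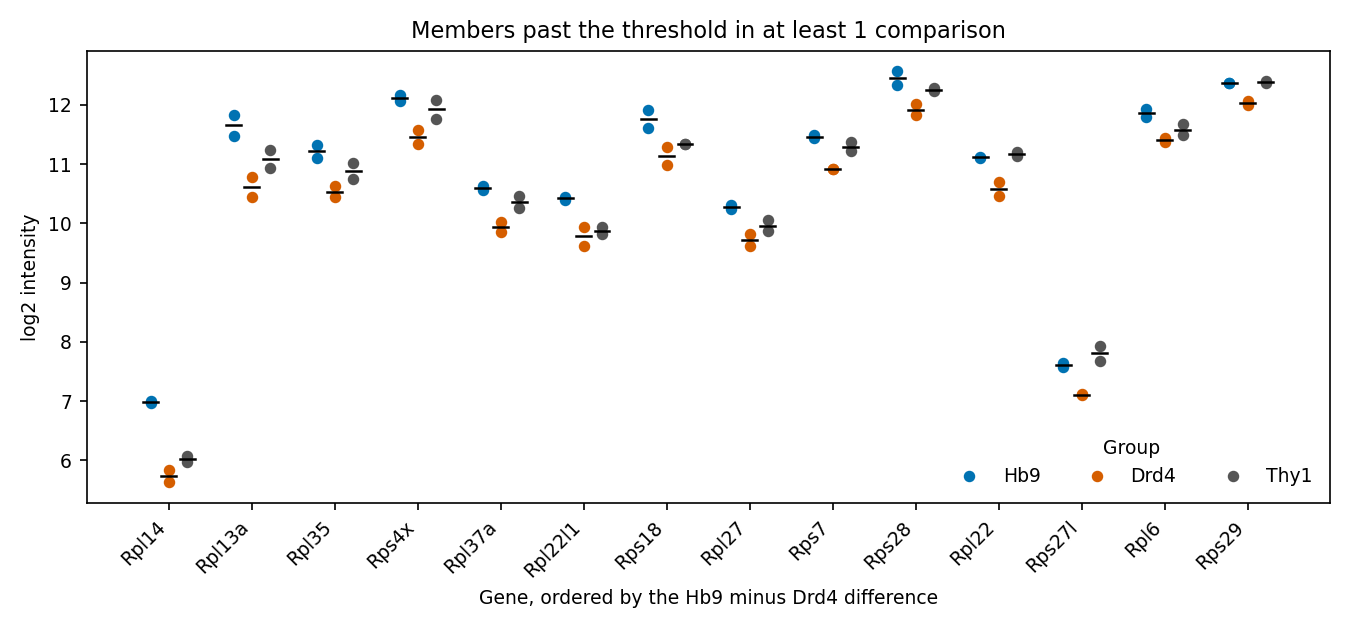
Points are the log2 intensities of single arrays (2 per group) for the 14 ribosomal protein genes past the adjusted p threshold in at least 1 comparison, ordered by the Hb9 minus Drd4 difference, and the short lines are group means. The Drd4 points lie below the Hb9 points for each gene shown, and the differences shown run from 1.26 for Rpl14 to 0.33 for Rps29.

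The start sites of the 13 members past the threshold in any comparison that have a listed start are shown because ribosomal protein messenger RNAs are known for a pyrimidine tract at their first base. RefSeq starts were listed for 42 of the 48 genes. The windows run from 20 bases before to 20 bases after the most 5′ start, in build GRCm38.p6, read 5′ to 3′ on the coding strand, and capitals mark the longest unbroken run of C or T.
Rpl14, chr9:120571497-120571536, plus strand: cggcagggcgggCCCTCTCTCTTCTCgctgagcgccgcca
Rpl13a, chr7:45128726-45128765, minus strand: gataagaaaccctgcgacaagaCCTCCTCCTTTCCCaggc
Rpl35, chr2:39005112-39005151, minus strand: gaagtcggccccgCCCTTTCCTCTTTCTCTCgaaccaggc
Rps18, chr17:33955646-33955685, minus strand: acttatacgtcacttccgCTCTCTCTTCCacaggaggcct
Rpl22l1, chr3:28805488-28805527, plus strand: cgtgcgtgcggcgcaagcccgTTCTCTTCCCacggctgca
Rps27l, chr9:66946066-66946105, plus strand: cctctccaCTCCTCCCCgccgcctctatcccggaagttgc
Rpl6, chr5:121204481-121204520, plus strand: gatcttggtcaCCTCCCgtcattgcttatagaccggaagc
Rpl22, chr4:152324416-152324455, plus strand: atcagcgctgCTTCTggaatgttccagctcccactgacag
Rpl27, chr11:101442225-101442264, plus strand: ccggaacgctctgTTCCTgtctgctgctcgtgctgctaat
Rpl37a, chr1:72711240-72711279, plus strand: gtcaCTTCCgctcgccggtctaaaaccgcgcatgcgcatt
Rps7, chr12:28635934-28635973, minus strand: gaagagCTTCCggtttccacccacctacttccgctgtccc
Rps28, chr17:33824543-33824582, minus strand: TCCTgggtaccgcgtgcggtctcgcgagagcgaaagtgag
Rps4x, chrX:102189372-102189411, minus strand: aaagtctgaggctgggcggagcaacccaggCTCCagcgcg

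The first 6 windows hold runs of 9 to 18 bases, Rpl6 holds 1 of 6, and the last 6 hold runs of at most 5. Of the runs of 6 or more, those of Rpl14, Rpl35 and Rps18 cover the listed start. The runs of Rps27l and Rpl6 lie wholly before it, and those of Rpl13a and Rpl22l1 begin after it. A run of 6 or more C or T, searched on the coding strand alone, was found in 28 of the 42 members (66.7%), against 37.4% of the 27025 genes of the promoter table. The longest run had a median of 7 bases over the members and 5 over the table. Among members past the threshold in any comparison 7 of 13 held such a run, and among the others 21 of 29. The listed start can differ from the one used in these cells, so a window without a run says only that these letters are not in it.

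Compared with Thy1 cells, Drd4 cells had lower signal for 42 of the 48 genes, with a median difference of -0.24 log2, or 1.18-fold lower. The median was -0.18 over the large and -0.29 over the small subunit genes. All genes had a median of 0.02 and the genes of like brightness 0.07, so the ribosomal protein genes lay on the other side of 0. Both subunit medians stayed negative under each of the scalings tried. After the shift to genes of like brightness 4 of the 48 were positive, against 46.8% of all genes. Both Drd4 arrays were below both Thy1 arrays for 35 of the 48, against 19.3% of all genes, and above them for 3, against 21.8%. Single genes rarely passed: 3 were lower at an adjusted p under 0.05, against 3.96% of all genes, and none was higher, against 1.51%. Of the 48, 21 had an unadjusted p under 0.05, against 2647 of all 18193 genes. This comparison shares its Drd4 arrays with the one above and its Thy1 arrays with the one below.

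Rps27l, the p53-inducible paralog of Rps27, had 7.10 and 7.12 in Drd4, 7.68 and 7.93 in Thy1, and 7.57 and 7.64 in Hb9. It was lower in Drd4 than in Thy1 by 0.70 ± 0.16 log2 (SE; adjusted p = 0.0283), and its other probe sets differed by -0.88 and -1.03. Rpl22 was lower by 0.60 ± 0.12 (adjusted p = 0.0167), with 2 further probe sets at -0.36 and 0.27. Rps29, at 12.01 and 12.06 in Drd4 against 12.41 and 12.37 in Thy1, was lower by 0.35 ± 0.09 (adjusted p = 0.041), a call lost in 13 of the 17 alternatives that measured it. Rps4x (-0.48 ± 0.13, adjusted p = 0.0747) and Rps7 (-0.38 ± 0.11, adjusted p = 0.0909) did not pass. All 3 stayed lower in Drd4 when any 1 array was left out. The smallest difference in size was 0.33 log2, without the first Drd4 array. In each of these fits some or all of the 3 calls were lost. Such fits leave 1 array in a group, so the lost calls do not show dependence on a particular array.

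Compared with Thy1 cells, Hb9 cells showed little shift of the ribosomal protein genes as a group. The median difference was 0.13 log2 (0.11 large, 0.14 small subunit), with 36 of 48 positive. The genes of like brightness had a median of 0.18 with 70.4% positive, and all genes 0.04 with 57% positive. After a shift to equal medians of the genes of like brightness, the medians turned to -0.04 for the large and -0.01 for the small subunit, so no direction is given for the group. Hb9 was above Thy1 on both arrays for 20 genes (33.2% of all genes) and below on both for 5 (21% of all genes). An unadjusted p under 0.05 was found for 10 of the 48 members. That is a smaller share than the 4195 of all 18193 genes and the 2480 of 7305 genes of like brightness. After adjustment Rpl14 alone passed, higher by 0.96 ± 0.15 (limma adjusted p = 0.00525), against 3.52% of all genes higher and 3.19% lower. The next largest differences were Rps6 at 0.60 ± 0.19 (adjusted p = 0.0885), Rpl13a at 0.57 ± 0.17 (adjusted p = 0.0727) and Rpl22l1 at 0.55 ± 0.15 (adjusted p = 0.0535). Without either Drd4 array, whose spread the fit shares, Rpl13a and Rpl22l1 passed too, and without the second Thy1 array Rplp2 was called lower.

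Among proteins with a role of their own, the stalk proteins Rplp0 and Rplp2 had opposite signs between Hb9 and Drd4, but neither passed. The difference between these genes was not tested. Rplp0, the base of the stalk that recruits the elongation factors, had 10.84 and 10.54 in Hb9, 10.20 and 10.51 in Drd4, and 10.65 and 10.95 in Thy1, and differed by 0.33 ± 0.16 between Hb9 and Drd4 (adjusted p = 0.304). Rplp2, an acidic stalk protein that binds to it, was the 1 member with a lower mean in Hb9 than in Drd4. Its values were 9.86 and 9.91 in Hb9, 10.22 and 10.17 in Drd4, and 10.50 and 9.82 in Thy1, a difference of -0.31 ± 0.19 (adjusted p = 0.434). The Thy1 arrays of Rplp2 spanned all the others. Rpl11, which with Rpl5 carries a small ribosomal RNA and can inhibit Mdm2, was flat, with a difference of 0.05 ± 0.12 between Hb9 and Drd4 and -0.17 ± 0.12 between Drd4 and Thy1. Rps6, the substrate of the S6 kinases, had 7.67 and 7.18 in Hb9, 6.71 and 6.95 in Drd4, and 6.79 and 6.86 in Thy1. Both Hb9 arrays lay above the rest, yet with 0.59 ± 0.19 over Drd4 the gene missed the threshold (adjusted p = 0.103).

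Paralog pairs differed in which group stood out, though the difference between paralogs was not tested. On the probe sets chosen, Rpl22 was low in Drd4 alone and Rpl22l1 high in Hb9 alone, as above. Of the further Rpl22 probe sets, 1 was also low in Drd4, at -0.36 against Thy1. The other was above Thy1 by 0.62 in Hb9 and 0.27 in Drd4. With the mean of all probe sets, Rpl22 in Drd4 minus Thy1 was -0.23 (limma adjusted p = 0.505). Rps27 differed by at most 0.08 in size in any comparison, while Rps27l was low in Drd4. Rps4x was low in Drd4, whereas Rps4l had 7.81 and 7.30 in Hb9, 7.26 and 7.79 in Drd4, and 7.00 and 7.02 in Thy1. The means of Rps4l in both GFP groups exceeded that in Thy1, by 0.54 (adjusted p = 0.173) and 0.51 (adjusted p = 0.309), with neither passing. Rpl7 differed by 0.21 between Hb9 and Drd4 and Rpl7l1 by 0.55, the latter with an SE of 0.28. Rpl39 differed by 0.24. Its paralog Rpl39l and the muscle paralog Rpl3l did not exceed the background reference in any group, and neither did the single probe set of Rps16, at 3.32 to 3.55. Without these 3 genes the Hb9 minus Drd4 medians were 0.34 over 24 large and 0.42 over 21 small subunit genes.

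Among members near the bottom of the differences, Rps2 and Rps25 were nearly level between Hb9 and Drd4, at 0.01 and 0.11. Rpl12, a protein near the stalk base, was brighter in Hb9, at 7.02 and 6.84, than in Thy1, at 6.30 and 6.50, by 0.53 ± 0.16, which did not pass (adjusted p = 0.0756).

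The members are bright, and brightness was examined directly. Between 10 and 12 log2 lay 27 members and 868 other genes. For Hb9 minus Drd4 the members had a median of 0.42 with 26 of 27 positive, and the others 0.03 with 54% positive. Of the members there 9 were called higher (33.3%), and of the others 53 (6.11%). For Drd4 minus Thy1 the medians were -0.30 and 0.07, with 1 of 27 members positive against 65.2% of the others. For Hb9 minus Thy1 both medians were 0.10.

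**Figure D3:**
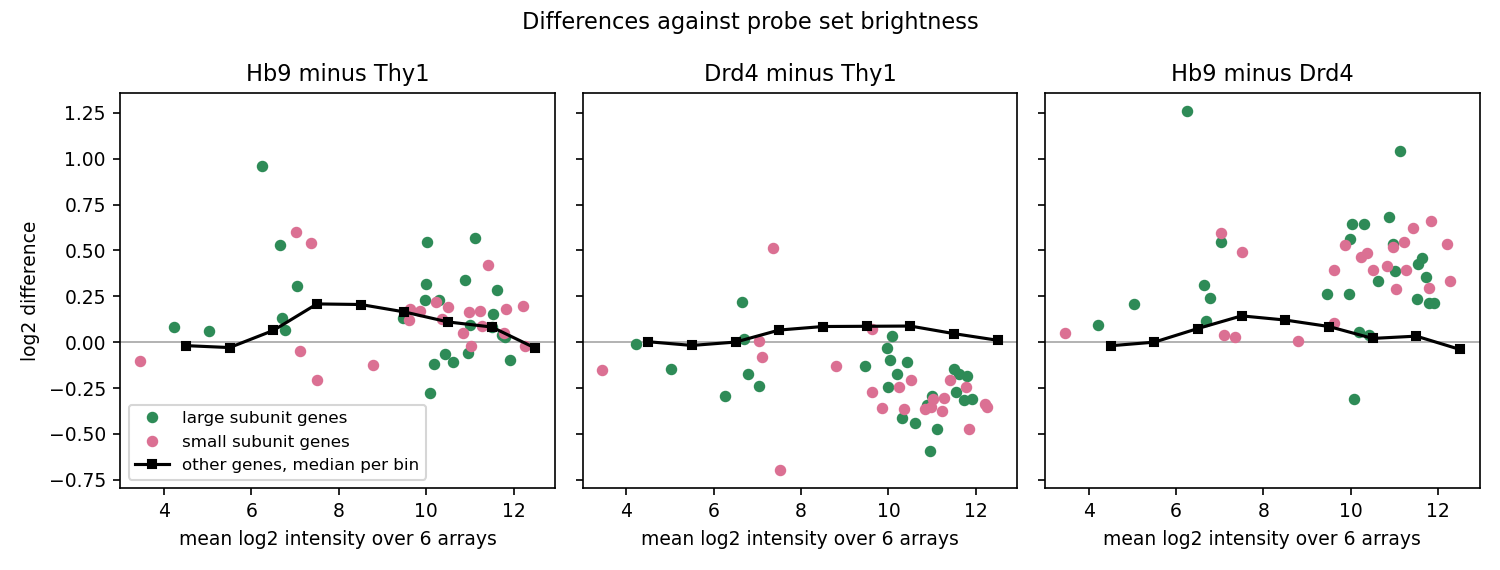
Each coloured point is 1 ribosomal protein gene, with its mean log2 intensity over the 6 arrays on the x axis and its log2 difference on the y axis, for 3 comparisons, and the black line joins the medians of other genes in bins of brightness. Above 10 log2 most members lie below the line in Drd4 minus Thy1 and above it in Hb9 minus Drd4, with window medians of -0.30 and 0.42.

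The pattern was also read on every probe set, including the 48 chosen above, so the reading is not independent of the first. The 48 genes have 103 probe sets of their own, and in Hb9 minus Drd4 92 of these were positive, with a median of 0.34. Of these 23 were called higher and none lower, when every probe set was fitted on its own, against 3.12% of all probe sets called higher. Of all 45037 probe sets 22249 were positive in this comparison, 1403 were called higher and 1519 lower. The 110 probe sets that name a ribosomal protein gene together with other genes, mostly pseudogenes, had a median of 0.31 with 96 positive, and 27 were called higher and none lower. Against Thy1, the shared probe sets in Drd4 had a median of -0.23 with 16 of 110 positive and none called. The genes' own probe sets had a median of -0.25 there, with 18 of 103 positive, 4 called lower and 0 higher. Of all 45037 probe sets 24872 were positive in Drd4 minus Thy1, 553 were called higher and 1144 lower. Of 23 genes with several probe sets, the sets of 16 had 1 sign in Hb9 minus Drd4, 15 in Drd4 minus Thy1 and 9 in Hb9 minus Thy1. Probe sets of 1 gene share their RNA and are not replicates.

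Other genes of the translation machinery gave the setting. Of ribosomal proteins named outside the symbol rule, Rpsa had 11.06 and 10.73 in Hb9, 10.02 and 10.42 in Drd4, and 10.46 and 10.69 in Thy1, and was higher in Hb9 than in Drd4 by 0.67 ± 0.17 (adjusted p = 0.0478). Fau differed by 0.35 and did not pass. Elongation factors and other genes known for pyrimidine tracts had a median of 0.18 in Hb9 minus Drd4, with 1 of 14 called, Eef1d, at 0.93 ± 0.21 (adjusted p = 0.0294). The filament gene Vim of that list was lower in both GFP groups than in Thy1, by 1.73 ± 0.19 in Hb9 (adjusted p = 0.00137) and 2.00 ± 0.19 in Drd4 (adjusted p = 0.000218). Initiation factors had a median of 0.12, with 3 of 28 called higher in Hb9 than in Drd4, namely Eif3k at 0.98, Eif3m at 0.61 and Eif2s3x at 0.56. Genes of like brightness to the cytosolic members had nearly the same median, 0.11. Of these 6.02% were called higher in Hb9 than in Drd4, and of all genes 4.06%, which also applies to the elongation factor list. None of the initiation factors passed in either comparison with Thy1.

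Mitochondrial ribosomal proteins, which build the separate ribosome of that organelle, were higher in Hb9 in the median, while Drd4 and Thy1 lay close. Their median was 0.39 in Hb9 minus Thy1 (74 of 76 positive) and 0.33 in Hb9 minus Drd4 (71 of 76 positive), but 0.07 in Drd4 minus Thy1 (52 of 76 positive). Genes of like brightness to the cytosolic members had medians of 0.18, 0.11 and 0.07 in these comparisons, the last no different from the mitochondrial one. In Hb9, 5 of 76 were called higher than in Thy1, led by Mrps6 at 0.93, Mrps24 at 0.82 and Mrpl52 at 0.80. Against Drd4, 6 were called higher, led by Mrpl52 at 0.88, Mrps6 at 0.86 and Mrpl11 at 0.83, and none was called lower in either comparison. Of all genes 3.52% were called higher in Hb9 than in Thy1 and 4.06% higher than in Drd4. For genes of like brightness these shares were 5.91% and 6.02%. Between Drd4 and Thy1 none of the 76 was called. Ribosome biogenesis and RNA polymerase I genes resembled them, with medians of 0.33, 0.23 and 0.05 in the same order of comparisons. Of these 45 genes, 4 were called higher in Hb9 than in Thy1, among them the polymerase subunits Polr1c (0.75) and Polr1e (0.71) and the assembly factor Tsr1 (0.71). Another 4 were called higher in Hb9 than in Drd4, among them Nmd3 (0.82), an export factor of the large subunit, Polr1d (0.75) and Polr1e (0.74). The shares of all genes and of genes of like brightness given above apply to these counts too. Growth regulators such as Mtor and Mycn had medians of 0.17, 0.02 and 0.11, and none of 12 was called. Whether any of these lists differs from the cytosolic ribosomal protein genes was not tested.

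**Figure D4:**
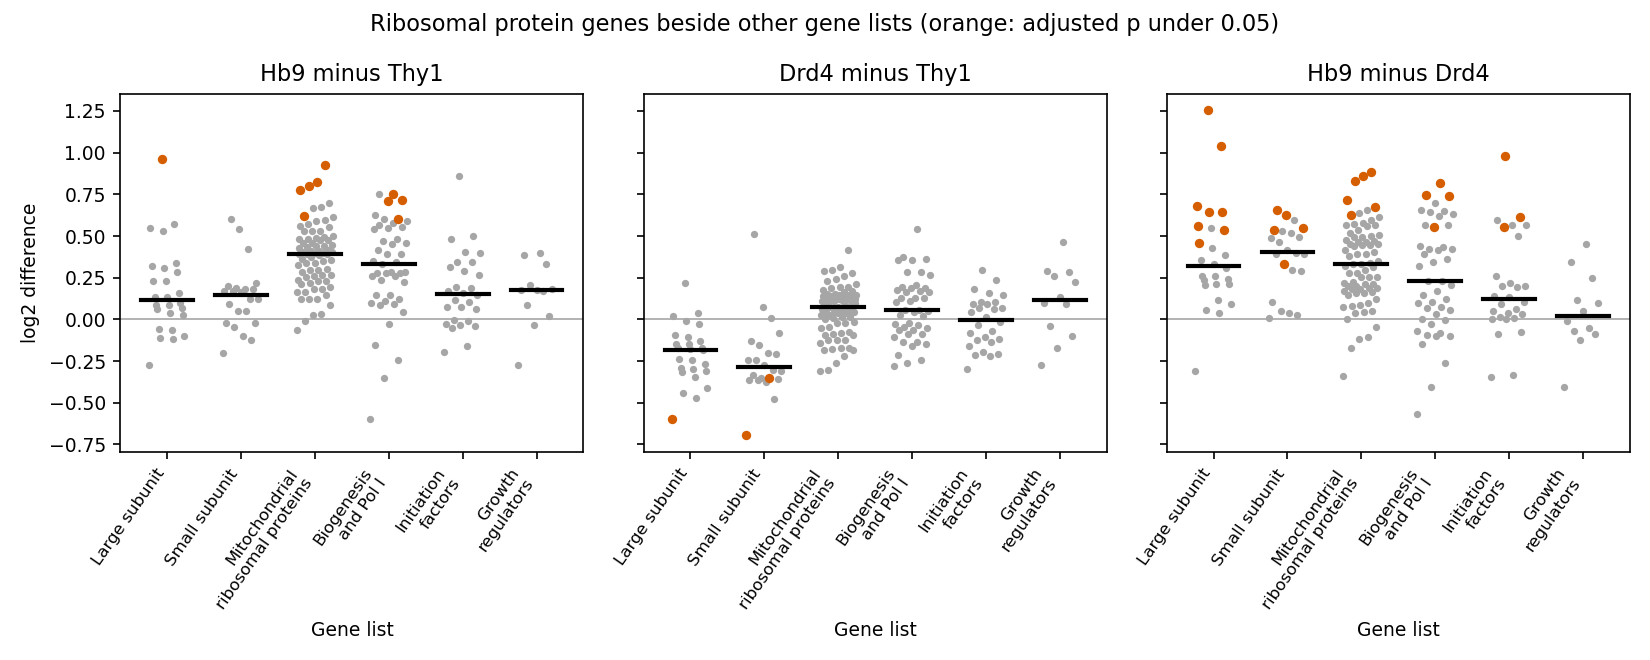
Points are log2 differences of single genes in 3 comparisons for large (n = 26) and small (n = 22) subunit genes, mitochondrial ribosomal proteins (n = 76), biogenesis and RNA polymerase I genes (n = 45), initiation factors (n = 28) and growth regulators (n = 12); black lines are medians and orange points have an adjusted p under 0.05. In Drd4 minus Thy1 the cytosolic subunits have medians of -0.18 and -0.29, and the mitochondrial and biogenesis lists 0.07 and 0.05.

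Markers of several other cell types were lower in both GFP groups than in Thy1. Of 13 measured microglia genes none had a higher mean in either GFP group than in Thy1, and 12 were called lower in each. Their summed intensity was 1786 to 2263 in Hb9, 1145 to 3251 in Drd4 and 7230 to 12429 in Thy1. Sums of endothelium and pericyte genes were 1877 to 2278, 558 to 1473 and 8797 to 10021, and those of genes of dividing cells 1240 to 1310, 1038 to 1190 and 1831 to 2734. Of 20 immediate-early and dissociation genes 7 were called lower in Hb9 and 8 in Drd4 than in Thy1. Their median differences from Thy1 were -0.50 in Hb9, with 1 of 20 positive, and -0.55 in Drd4, with 2 of 20 positive. Between Hb9 and Drd4 no gene of these 4 lists was called in either direction, and their medians were 0.08, 0.20, 0.26 and 0.01, although the sums of the vessel and dividing cell genes were higher on both Hb9 arrays than on both Drd4 arrays. Of the microglia genes 3 were at background in Hb9, 1 in Drd4 and 0 in Thy1. Of 11 rod and cone genes none was called in any comparison, and their sums lay between 426 and 469 on all arrays. Of 13 bipolar, amacrine and horizontal cell genes 2 were called lower in Drd4 than in Thy1 and 1 was called higher in Hb9 than in Drd4. Their sums were 1837 to 1864 in Hb9, 1183 to 1330 in Drd4 and 1306 to 1526 in Thy1. Of 15 Müller glia and progenitor genes 3 were called lower and 1 higher in Hb9 than in Thy1. In Drd4 against Thy1 3 were called lower and 2 higher, and in Hb9 against Drd4 1 lower and 1 higher. Of the 13 ganglion cell markers 1 was called higher in Hb9 than in Thy1. In Drd4 against Thy1 3 were called higher and 1 lower, and in Hb9 against Drd4 1 higher and 1 lower. Of all genes 3.52% were called higher and 3.19% lower in Hb9 than in Thy1. In Drd4 against Thy1 these shares were 1.51% and 3.96%, and in Hb9 against Drd4 4.06% and 2.06%. The part of these lists in the results was not tested.

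Control probe sets differed by group as well. The 5′ probe set of the 18S ribosomal RNA read 1125 and 1071 in Hb9, 2457 and 3262 in Drd4, and 2866 and 2772 in Thy1. Its 3′ probe set read 1003 and 903 in Hb9, against 480 and 624 in Drd4 and 732 and 865 in Thy1. The ratio of 3′ to 5′ Gapdh signal was 4.65 and 5.04 in Hb9, 4.45 and 3.84 in Drd4, and 4.10 and 3.99 in Thy1, and the Hb9 arrays lay outside the range of both other groups in these readings. The same ratio for actin overlapped, at 4.02 and 4.81 in Hb9, 4.88 and 4.58 in Drd4, and 5.06 and 4.64 in Thy1. Median intensities of the arrays lay between 45.5 and 47.7. The part of these readings in the result was not tested.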

How the data were processed

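The deposited table holds probe set intensities on a linear scale for 6 Affymetrix arrays. Per the labels' protocols, RNA was extracted with the PicoPure kit, amplified in 2 rounds and labelled with biotin. The software and normalisation behind the intensities deposited by the authors are not given in the sources used. Amplification favours 3′ ends, and the number of arrays limits the precision.

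Of 45101 probe sets, 64 were controls, 34945 named 1 gene in the platform annotation, 932 several and 9160 none. Log2 was taken with no offset, and 1 probe set per gene was kept (highest mean). Groups were fitted in limma 3.58.1, run in R 4.3.3 (1 mean for each, 3 residual and 6.98 prior degrees of freedom, intensity trend). Tests were two-sided, with Benjamini-Hochberg adjustment over all 18193 genes. Genes of like brightness lay between 6.68 and 11.79 log2, the 10th and 90th percentiles of the members' means. The background reference was the brightest bacterial control probe set of each array. The fit was tested on simulated data.

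Named were members past the threshold, the 3 largest differences each way per comparison, and a fixed set of stalk proteins, paralogs and others, plus up to 3 called genes per other list. Members, lists and tests were chosen with earlier results of these data known. Of the set, 5 genes had no probe set of their own. Alternatives covered scaling, the choice of probe set, the fit, replicate blocks and leaving out each array. Sequences and starts came from RefSeq. Of the members 18 stood on probe sets of the x or s type.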

Additional observations from a re-analysis of the deposited data

Results flagged for a closer look

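As deposited, for 11 genes the mean of Hb9 lay above that of Thy1 and the mean of Drd4 below it, and the difference between both effects passed the threshold in limma. The difference was 1.26 log2 for Rpl14, 1.04 for Rpl13a, 0.68 for Rpl35, 0.66 for Rps4x, 0.65 for Rpl37a, 0.64 for Rpl22l1, 0.62 for Rps18, 0.56 for Rpl27, 0.55 for Rps7, 0.54 for Rps28 and 0.46 for Rpl6. Both effects share the Thy1 arrays, so the difference between them equals Hb9 minus Drd4 and is the same test as in the report. Of the single effects, Rpl14 in Hb9 was the 1 that passed. Groups of 2 arrays were too small to look for a single outlying array.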

How the results depend on the processing

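Of 12 summary values under 18 alternatives, 183 of 216 readings kept their direction and stayed near the reported value. The next counts are of genes past the threshold, each with the share of all genes so called. The count of genes higher in Hb9 than in Drd4 (13) was 8 with the mean of all probe sets (3.22%). It was 7 without the intensity trend (4.14%) and 6 after a shift to genes of like brightness (2.79%). That of genes higher in Hb9 than in Thy1 (1) was 2 when arrays were centred on their median (4.69%). It was 2 without dim genes (4.79%) and 3 when only 2 groups were fitted (4.9%). That of genes lower in Drd4 than in Thy1 (3) was 1 with the mean of probe sets (3.53%) and 1 with only 2 groups (3.71%). The shift to genes of like brightness, chosen after seeing the data, moved the median of all genes to -0.11 in Hb9 minus Thy1 and -0.09 in Hb9 minus Drd4 (from 0.04 in both). It turned the Hb9 minus Thy1 medians to -0.0425 (large) and -0.0125 (small subunit), 0.07 and 0.10 above all genes. It left Hb9 minus Drd4 medians of 0.20 and 0.28, which are 0.28 and 0.37 above all genes, with 38 of 48 positive. With the mean of probe sets the small subunit median was 0.31. Leaving out 1 array at a time gave 1 to 13 genes higher and 0 lower in Hb9 than in Drd4, 0 to 2 lower and 0 higher in Drd4 than in Thy1, and 1 to 3 higher and 0 to 1 lower in Hb9 than in Thy1. Medians for the large and small subunit ran from 0.24 to 0.41 and 0.34 to 0.46 (Hb9 minus Drd4), -0.29 to -0.16 and -0.37 to -0.21 (Drd4 minus Thy1), and 0.08 to 0.21 and 0.0473 to 0.20 (Hb9 minus Thy1), and 42 to 47 of 48 genes stayed positive in Hb9 minus Drd4. Where 1 array was left, it was assumed to vary like the other groups. Replicate numbers did not pair the arrays across all 3 groups. Correlations of deviations were 0.37 for Drd4 and Thy1, but -0.28 for Hb9 and Drd4 and -0.19 for Hb9 and Thy1. With the number as a replicate block the calls were 10 higher in Hb9 than in Drd4, 2 lower in Drd4 than in Thy1 and 1 higher in Hb9 than in Thy1. With the Hb9 numbers crossed, chosen after seeing the data, they were 29, 18 and 10, while the shares of all genes so called were 10%, 5.43% and 11.8%. The causes were not tested. Of the named genes, Rpl14 kept its calls in all alternatives, Rps29 lost its calls in 10 (Hb9 and Drd4) and 13 (Drd4 and Thy1), and between Hb9 and Drd4 Rpl27 lost its call in 9 and Rpl6 in 7. Signal near background limits Rpl39l, Rpl3l and Rps16.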
